A study of Mus musculus with 4 samples.

Results

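The genes described here encode proteins that copy DNA in S phase, together with those that supply its nucleotides, start it and pack the new DNA. They were taken from a list of 47 gene symbols, each matched to the gene name printed in the array files and read from its brightest probe well above background. By symbol 42 of the 47 were found, on 59 probes, of which 54 were tested, and every one of these 42 genes had a tested probe. They were 42 of 13611 genes with a tested probe. Orc2 to Orc6, the remaining 5, are in the files under older symbols. They were read by accession as an addition and are given apart from the 42.

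Transcript levels were compared between whole mouse embryos homozygous for V1330M in Btaf1, a point mutation induced with ENU, and wild-type ones. The BTAF1 protein, an ATPase, takes the TATA-binding protein off DNA. Mutant and wild-type embryos were both on a mixed C57BL/6J and FVB/NJ background (FVB share 50 to 90%), were pooled, and were taken at 3 to 5 somites where possible. In the stage_matched set the pools were paired by somite count, and in the age_matched set litter mates were favoured and up to 5 somites of difference were allowed. Each set is 1 pair of pools on 2 arrays with the dyes exchanged: replicate 1 held the mutant in Cy5 and replicate 2 held it in Cy3. The 2 arrays of a set share their RNA and count as 1 sample, so n = 2 sets. The labels do not give the number of embryos in a pool or say that the sets came from separate embryos. The p-values thus measure the spread between these pools alone. As the 2 sets were paired by different rules, that spread includes any difference between stage and age matching. Each array had 43379 spots, of which 52.9 to 59.6% were well above background in either dye, 0 were saturated, and all 4 arrays lay on 1 slide. The number of arrays limits the precision. Values below are log2 ratios with the mutant in the numerator, replicate 1 first in each set, and a mean is taken over both sets, with its SD.

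DNA replication starts when the origin recognition complex, CDC6 and CDT1 load the MCM2-7 helicase onto origins before S phase. CDC45 and the GINS complex then switch the helicase on, primase and polymerase alpha lay down primers, and polymerases delta and epsilon extend them behind the sliding clamp PCNA. Many of these genes are transcribed at the border of G1 and S under E2F factors, and rapidly dividing tissues such as the early embryo carry their transcripts at high levels.

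Most of the replication genes read slightly lower in the mutant embryos, and hardly any passed a test alone. The median over the 42 genes was -0.136, with -0.109 for the stage_matched and -0.105 for the age_matched pools. Over all 13611 tested genes the median was 0.0181. The mean of the sets was negative for 30 of the 42 genes, a share of 71.4%, against a background of 45.7% of all tested genes. It was negative in both sets for 22 genes, a share of 52.4% against a background of 30.8%. In both sets 9 genes were positive, a share of 21.4% against a background of 37.4%. All 42 means lay within 0.5 of zero. The median depended on single arrays and on the centring. It was -0.0489, with 23 genes negative, without age_matched replicate 1, and -0.192, with 32 negative, under median centring, which put the median of all genes at -0.0552.

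By limma, with p-values adjusted by Benjamini-Hochberg over every tested probe and a threshold of 0.05, 1 of the 42 genes was lower, against a background of 2.72%, and 0 were higher, against 2.03%. That gene was Pold2. At an unadjusted p under 0.05, 10 genes were lower, a share of 23.8% against a background of 11.1%, and 1 was higher, against 11.4%. The 10 were Cdc6, Mcm5, Gins2, Rfc3, Pold1, Pold2, Rpa2, Rrm1, Tk1 and Chaf1a, and the 1 was Prim2. On all 4 arrays 9 genes were negative, a share of 21.4% against a background of 13.7%, and 2 were positive, against 14.9%. The 9 were Cdc6, Mcm5, Rfc5, Pold1, Pold2, Lig1, Rrm1, Rrm2 and Tk1, and the 2 were Pola1 and Pole. The counts by adjusted p are near their backgrounds. The shares of negative values exceed theirs.

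**Figure D1:**
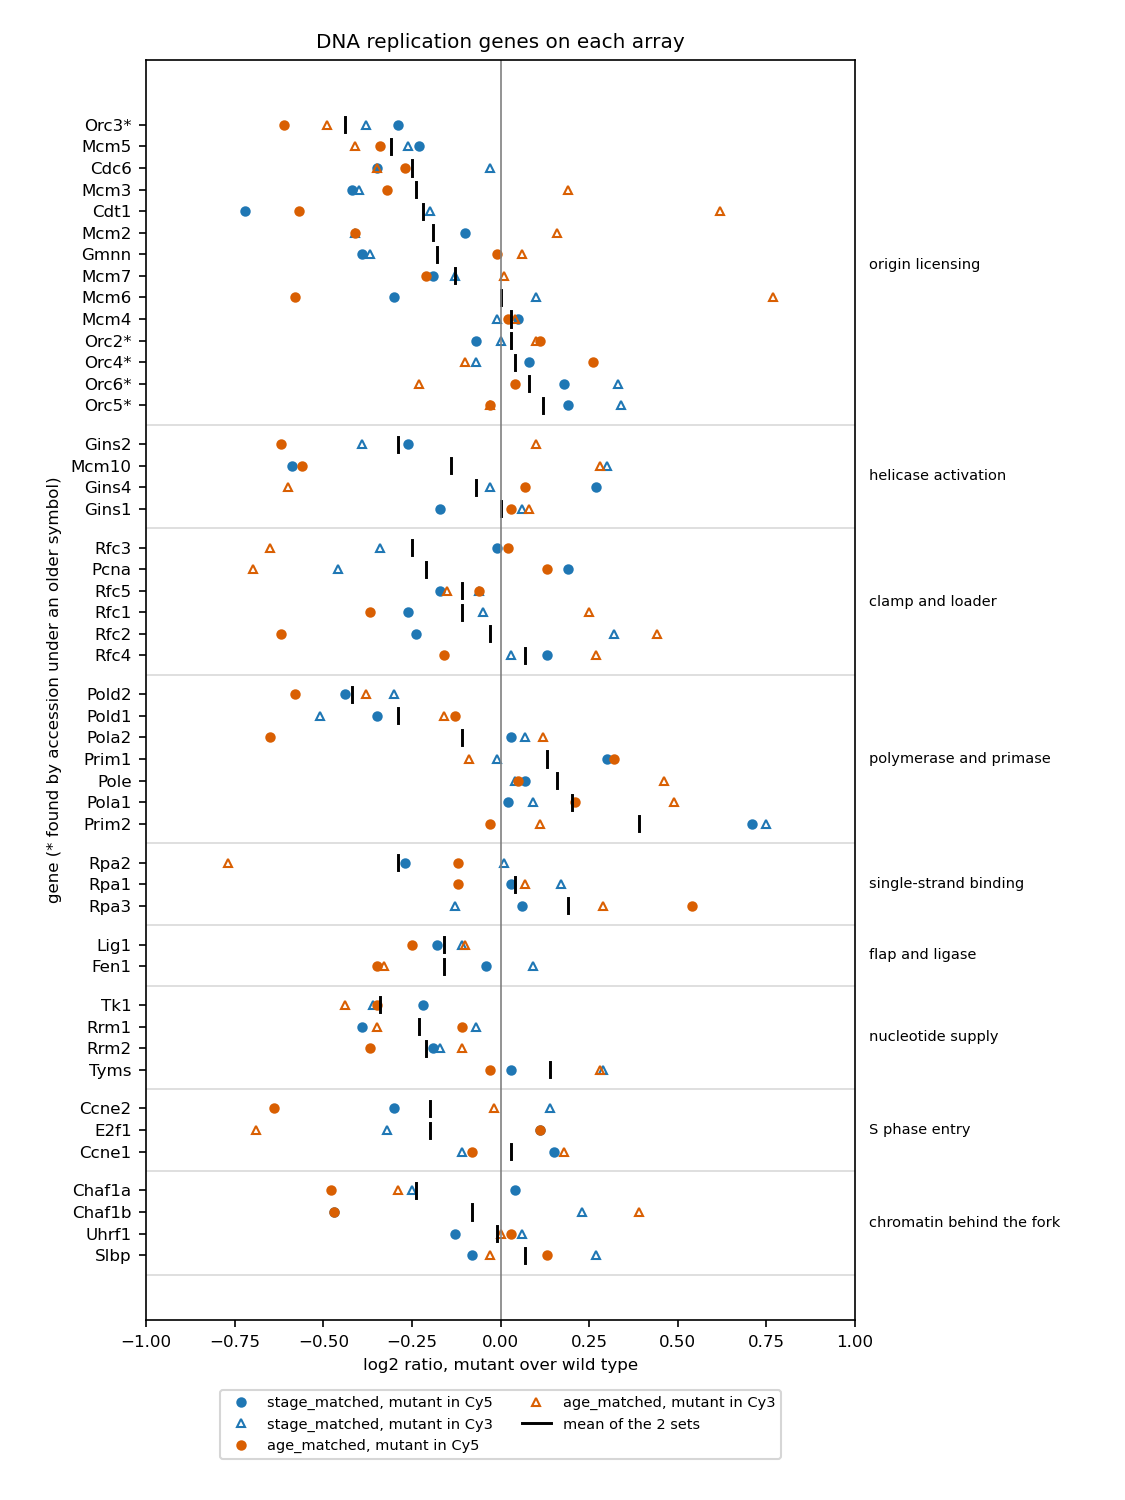
Each row is a gene, grouped by role, and the horizontal axis is the log2 ratio of mutant over wild type. Points are single arrays, coloured by set, with circles for the mutant in Cy5 and open triangles for the mutant in Cy3, and the black bar is the mean of the 2 sets. All 4 points of Pold2, Tk1 and Mcm5 lie left of zero, while those of Mcm6, Mcm10 and Chaf1b are split by dye.

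**Figure D2:**
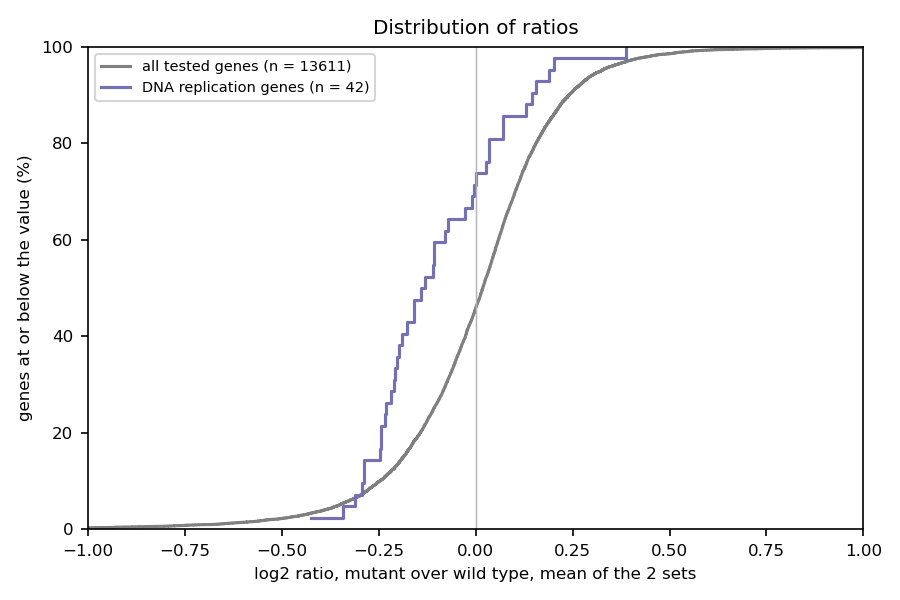
The horizontal axis is the mean log2 ratio of the 2 sets and the vertical axis the percentage of genes at or below it. The curve of the 42 replication genes lies to the left of that of all 13611 tested genes around the median, -0.136 against 0.0181, and stays within 0.5 of zero.

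Readings of these genes also differed by dye orientation. With the mutant in Cy5 the median of the 42 genes was -0.169 (stage_matched) and -0.145 (age_matched). With the mutant in Cy3 it was -0.0391 and 0.0249. Over all tested genes the 4 array medians ran from -0.0015 to 0.0255. Loess removes a dye bias that depends on brightness but not one of a single probe, which cancels in the mean of a set. In 17 of the 42 genes the dye effect, the distance of either orientation from the mean of both, was larger than the mean ratio, a share of 40.5% against 46.4% of all tested genes. The median size of the dye effect was 0.0828 in the 42 genes and 0.104 in all tested genes. In 8 genes the sign followed the dye on all 4 arrays, a share of 19%, against 21.1% of all tested genes. For 7 genes, Cdt1, Mcm6, Mcm10, Pcna, Rfc2, E2f1 and Chaf1b, the dye effect exceeded 0.3, a share of 16.7% against 7.91%.

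**Figure D3:**
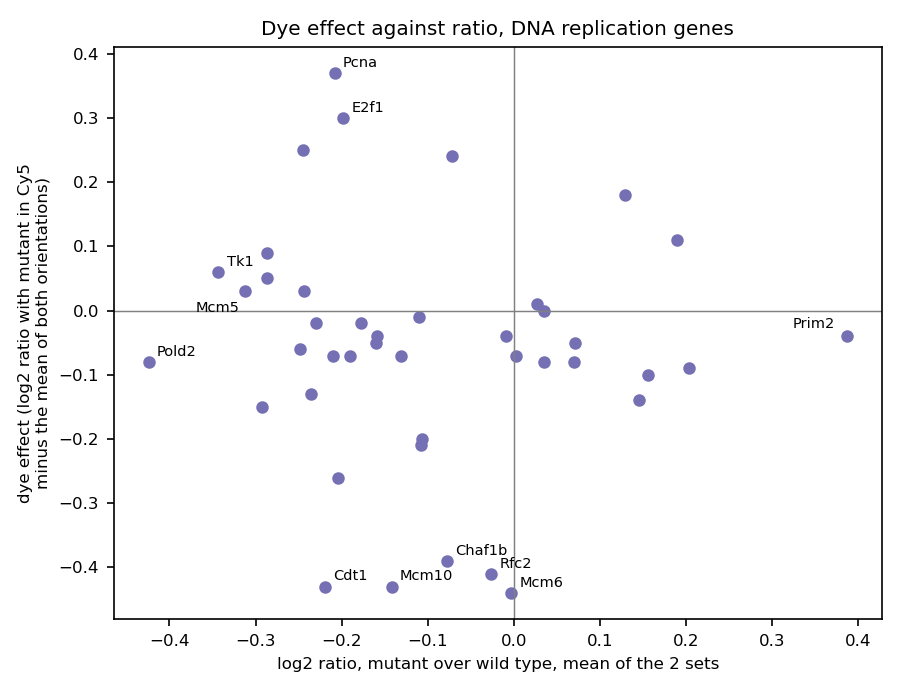
The horizontal axis is the mean log2 ratio of the 2 sets and the vertical axis the dye effect, which is the log2 ratio with the mutant in Cy5 minus the mean over both orientations; each point is 1 of the 42 genes. Pold2, Tk1, Mcm5 and Prim2 have dye effects between -0.08 and 0.06, while Mcm6 has -0.44 at a mean near zero.

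Origin licensing was the largest role, with 9 genes found by symbol. Its median was -0.19, 8 of the 9 were negative and 0 passed the threshold. The helicase is a ring of 6 different subunits, and these were read unequally. Mcm5 read -0.23 and -0.26 with stage_matched pools and -0.34 and -0.41 with age_matched pools. Every array was below zero and the dyes made little difference. It averaged -0.31 ± 0.09 (SD, n = 2), a 1.24-fold lower level, with limma adjusted p = 0.102. Mcm3 read -0.42, -0.40, -0.32 and 0.19 in the same order, low on 3 and high on the last. Its mean was -0.24 ± 0.24 (SD, n = 2; limma adjusted p = 0.25), and its other probe read -0.43 (limma adjusted p = 0.0558).

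The other helicase subunits were closer to zero. Mcm2 had a mean of -0.19 ± 0.09 and Mcm7 of -0.13 ± 0.04 (SD, n = 2), each negative on 3 of 4 arrays. Mcm4 read 0.05, -0.01, 0.02 and 0.04, which places all 4 arrays at zero within 0.05, with a mean of 0.03 ± 0.01 (SD, n = 2; limma adjusted p = 0.893). Mcm6 read -0.30, 0.10, -0.58 and 0.77. Both arrays with the mutant in Cy5 were low and both with it in Cy3 were high. Its mean of 0.00 ± 0.14 (SD, n = 2; limma adjusted p = 0.989) was thus the balance of opposed arrays, unlike that of Mcm4. No difference between subunits was tested.

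The loaders of the helicase and their inhibitor did not pass the threshold. Cdc6, the ATPase that works with the origin recognition complex, read -0.35 and -0.03 with stage_matched pools and -0.27 and -0.35 with age_matched pools. All 4 were negative, with a mean of -0.25 ± 0.09 (SD, n = 2; limma adjusted p = 0.166). Its other probe read -0.08. Cdt1, which brings the helicase to the origin, read -0.72, -0.20, -0.57 and 0.62. Its single positive array was the age_matched one with the mutant in Cy3. Its mean was -0.22 ± 0.34 (SD, n = 2; limma adjusted p = 0.346). Gmnn encodes geminin, the inhibitor of CDT1. It read -0.39 and -0.37 with stage_matched pools and -0.01 and 0.06 with age_matched pools, low in one set and near zero in the other. It averaged -0.18 ± 0.28 (SD, n = 2).

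Among the subunits of the origin recognition complex found under older symbols, Orc3 stood lowest. It read -0.29, -0.38, -0.61 and -0.49, below zero on every array, with a mean of -0.44 ± 0.15 (SD, n = 2; 1.36-fold lower; limma adjusted p = 0.0482). Its 3 other tested probes read -0.32, -0.21 and -0.14, all negative and none past the threshold. The other subunits read by accession had means of 0.03 for Orc2, 0.04 for Orc4, 0.12 for Orc5 and 0.08 for Orc6. With these 5 genes added to the 42, the median became -0.11 and 2 of 47 genes were past the threshold. Orc1, also under an older symbol, belongs to the wider list described below and was picked with its ratio already known. It read -0.36, -0.24, -0.29 and -0.39, so Orc3 was not the only subunit below zero on every array. The mean of Orc1 was -0.32 ± 0.03 (SD, n = 2; limma adjusted p = 0.0908).

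Promoter sequence is shown for some of these genes to describe matches to E2F, NF-Y and other motifs. The RefSeq promoter table (GRCm38.p6) gives windows from 250 bases before to 50 after a transcript start, and 38 of the 47 genes had one or more, 47 windows in all. The 9 genes not matched were Gmnn, Mcm4, Gins1, Gins2, Gins4, Rfc2, Prim2, Pole and Ccne2. Below are the last 120 bases before the start, 5′ to 3′, with matches to the searched motifs in capitals. These are the E2F forms TTTCCCGC and TTTGGCGC, the NF-Y form CCAAT, the TATA form TATAAA and the cell cycle element TTTGAA, each on both strands, so that ATTGG and GCGCCAAA are matches too. Mcm5 (chr8:75109389-75109508, plus strand) and Mcm3 (chr1:20820313-20820432, minus strand) are shown as helicase subunits with lower readings and Mcm6 (chr1:128359706-128359825, minus strand) as one with a mean near zero. Orc3 (chr4:34614943-34615062, minus strand) and Pold2 (chr11:5878257-5878376, minus strand) are the genes past the threshold, and Tk1 (chr11:117826015-117826134, minus strand) is next to them.
Mcm5: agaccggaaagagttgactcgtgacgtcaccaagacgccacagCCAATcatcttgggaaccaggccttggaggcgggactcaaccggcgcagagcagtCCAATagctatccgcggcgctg
Mcm3: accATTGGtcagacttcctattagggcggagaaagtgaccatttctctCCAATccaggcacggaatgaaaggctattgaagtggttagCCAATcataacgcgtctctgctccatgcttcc
Mcm6: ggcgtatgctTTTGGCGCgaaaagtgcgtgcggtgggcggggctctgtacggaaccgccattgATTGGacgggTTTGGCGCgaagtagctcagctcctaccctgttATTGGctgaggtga
Orc3: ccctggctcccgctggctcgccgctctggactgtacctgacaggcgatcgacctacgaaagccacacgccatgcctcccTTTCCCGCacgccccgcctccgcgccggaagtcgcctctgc
Pold2: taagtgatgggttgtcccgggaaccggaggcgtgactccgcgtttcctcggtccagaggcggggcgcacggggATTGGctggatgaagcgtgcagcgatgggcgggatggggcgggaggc
Tk1: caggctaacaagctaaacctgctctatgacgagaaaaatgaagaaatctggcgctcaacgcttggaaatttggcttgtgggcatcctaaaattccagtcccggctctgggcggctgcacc

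An E2F form was found in 10 of the 47 windows (21.3%) and in 1.56% of the 32851 windows of all genes. TTTCCCGC alone was in 12.8% against 1.07%, and TTTGGCGC alone in 10.6% against 0.514%. The genes with an E2F form were Cdc6, Cdt1, Mcm3, Mcm5, Mcm6, Mcm7, Orc3, Pola1, Pold1 and Rfc3. CCAAT was in 26 windows (55.3%) against 37.4% of all windows. TATAAA was in 2 windows (4.26%) against 13.6%, and TTTGAA in 3 (6.38%) against 17.9%. Exact 95% intervals, which take windows as independent, ran from 0.52 to 14.5% for TATAAA and from 1.34 to 17.5% for TTTGAA. The first holds the share of all windows, and the second ends just below it. Windows of a gene with several starts can overlap, so they are not independent.

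Ratios of genes with and without an E2F form overlapped, from -0.44 to 0.20 with it and from -0.42 to 0.19 without. Mcm6 holds 2 copies of TTTGGCGC within the bases shown, and its mean ratio of 0.00 was the balance of arrays opposed by dye. Mcm5 has its TTTGGCGC match from base -149, counted from the start and outside the bases shown. Neither Pold2 nor Tk1 had an E2F form in its windows. Pold2 has another window, not shown, which holds a TATAAA match from base -102 and TTTGAA matches from bases -236 and -171. The TATAAA match lies on the opposite strand and reads TTTATA in the direction of the gene. The 10 genes with an E2F form had a median ratio of -0.24, with 9 negative, and the 28 genes with a window but no such form had -0.107, with 17 negative. For CCAAT the medians were -0.131 over 23 genes with it and -0.159 over 15 without. These letters are a description of the windows. Binding was not measured, and no link of a motif to the ratios was tested.

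**Figure D4:**
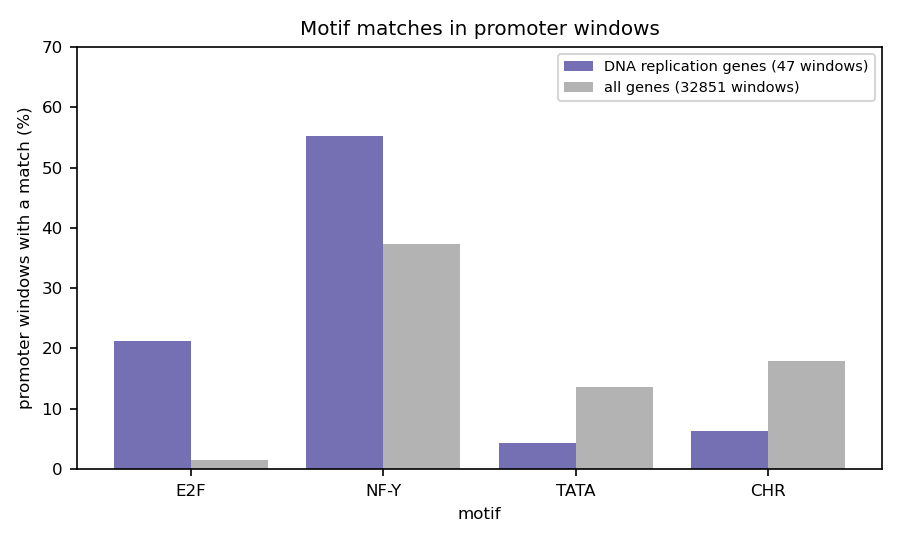
Bars give the percentage of promoter windows with at least 1 match on either strand, for the 47 windows of the replication genes and the 32851 windows of all genes. The E2F bar stands at 21.3% against 1.56% and the NF-Y bar at 55.3% against 37.4%. The TATA and CHR (TTTGAA) bars are lower in the replication genes, where they rest on 2 and 3 windows.

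Helicase activation was covered by 4 genes with a median of -0.107, and 0 passed the threshold. Gins2, a subunit of the GINS complex, read -0.26 and -0.39 with stage_matched pools and -0.62 and 0.10 with age_matched pools. It was negative on 3 of 4 arrays with a mean of -0.29 ± 0.05 (SD, n = 2; limma adjusted p = 0.113). Gins4 had a mean of -0.07 ± 0.27 and Gins1 of 0.00 ± 0.08 (SD, n = 2). Gins3, the remaining GINS subunit, is in the wider list, was named after its value was seen, and had a mean of 0.14 (limma adjusted p = 0.407). Cdc45, from the same list and likewise named after its value was seen, read -0.22, -0.21, -0.31 and -0.67. All 4 arrays were negative, with a mean of -0.35 (limma adjusted p = 0.0972). Mcm10, which helps to open the helicase, read -0.59, 0.30, -0.56 and 0.28. Its sign followed the dye exactly, and it averaged -0.14 (limma adjusted p = 0.401).

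For the sliding clamp and its loader the median of 6 genes was -0.109, with 5 negative and 0 past the threshold. Pcna, the clamp, read 0.19 and -0.46 with stage_matched pools and 0.13 and -0.70 with age_matched pools. Here the arrays with the mutant in Cy3 were the low ones, the reverse of Mcm6. It averaged -0.21 ± 0.10 (SD, n = 2; limma adjusted p = 0.240). The loader, replication factor C, has a large subunit Rfc1 and the small subunits Rfc2 to Rfc5. Rfc3 had a mean of -0.25 ± 0.10 (SD, n = 2; limma adjusted p = 0.174), Rfc5 of -0.11, Rfc1 of -0.11, Rfc2 of -0.03 and Rfc4 of 0.07. A second Rfc2 probe read 0.03, -0.08, -0.34 and -0.31, with a mean of -0.17 and no split by dye. Rfc5 was the loader subunit below zero on 4 of 4 arrays, with -0.17, -0.06, -0.06 and -0.15.

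The polymerases and primase were the role with the widest range, from -0.42 to 0.39, and a median above zero, at 0.129. Polymerase delta, which makes most of the lagging strand, has 4 subunits, of which Pold2 fell and the others did not pass the threshold. Pold2, its accessory subunit (probe on chromosome 11, 5773086 to 5773145, mm9, minus strand), read -0.44 and -0.30 with stage_matched pools and -0.58 and -0.38 with age_matched pools. All 4 arrays were low, in both dye orientations. Pold2 fell by 0.42 ± 0.08 (SD, n = 2), a 1.34-fold lower level, with limma adjusted p = 0.0463. That call sits close to the threshold and ended without background correction (limma adjusted p = 0.0809), with the scanner's processed signals (0.0988), with no filter on dim probes (0.0563), and without stage_matched replicate 1 (0.137), age_matched replicate 1 (0.379) or age_matched replicate 2 (0.0795), while the ratio stayed between -0.47 and -0.37. Pold1, the catalytic subunit, read -0.35, -0.51, -0.13 and -0.16. It was low on every array and lower in the stage_matched set, with a mean of -0.29 ± 0.20 (SD, n = 2; limma adjusted p = 0.154), and its other probe read -0.22. The remaining subunits Pold3 and Pold4, from the wider list and named after their values were seen, had means of -0.10 (limma adjusted p = 0.554) and -0.14 (limma adjusted p = 0.432).

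Primase and polymerase alpha, which travel as one complex, read near or above zero at most subunits, and 0 passed the threshold against wild type. Prim2, the large primase subunit (probe on chromosome 1, 33510733 to 33510792, mm9, minus strand), read 0.71 and 0.75 with stage_matched pools and -0.03 and 0.11 with age_matched pools. The stage_matched arrays were high and the age_matched arrays near zero, with no overlap. It averaged 0.39 ± 0.49 (SD, n = 2; limma adjusted p = 0.183), so the difference from wild type did not hold against the spread between sets. The age_matched minus the stage_matched ratio was -0.69 (limma on the 4 arrays, adjusted p = 0.00833). Prim2 was 1 of 42 genes past the threshold in that test, against a background of 2.23%, and its error is the technical spread between dye-exchanged arrays, with no variation between embryos. The call ended without background correction, with processed signals and with median centring, where 0 genes passed. Prim1, the small catalytic primase subunit, read 0.30, -0.01, 0.32 and -0.09, with no such split between sets and a mean of 0.13 ± 0.02 (SD, n = 2).

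Pola1, the catalytic subunit of polymerase alpha, lies on the X chromosome. It read 0.02 and 0.09 with stage_matched pools and 0.21 and 0.49 with age_matched pools, above zero on all 4 and higher in the age_matched set. It averaged 0.20 ± 0.21 (SD, n = 2; limma adjusted p = 0.297). Transcripts of sex chromosomes differed between the same sets. Xist, which is made from the inactive X, read -1.0 with stage_matched and 0.77 with age_matched pools, while the Y-linked genes Ddx3y, Eif2s3y and Kdm5d read 0.41, 0.33 and 0.11 in the first and -0.85, -0.81 and -0.70 in the second. In each of these 4 genes the sets differed past the threshold (limma on the 4 arrays). The part of the pools' sex in the Pola1 ratio was not tested. Pola2, the accessory subunit, read 0.03, 0.07, -0.65 and 0.12, low on 1 array, with a mean of -0.11 ± 0.22 (SD, n = 2). Pole, the catalytic subunit of the leading strand polymerase epsilon, read 0.07, 0.04, 0.05 and 0.46. It was above zero on all 4 arrays, mainly through the last, with a mean of 0.16 ± 0.14 (SD, n = 2; limma adjusted p = 0.387).

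**Figure D5:**
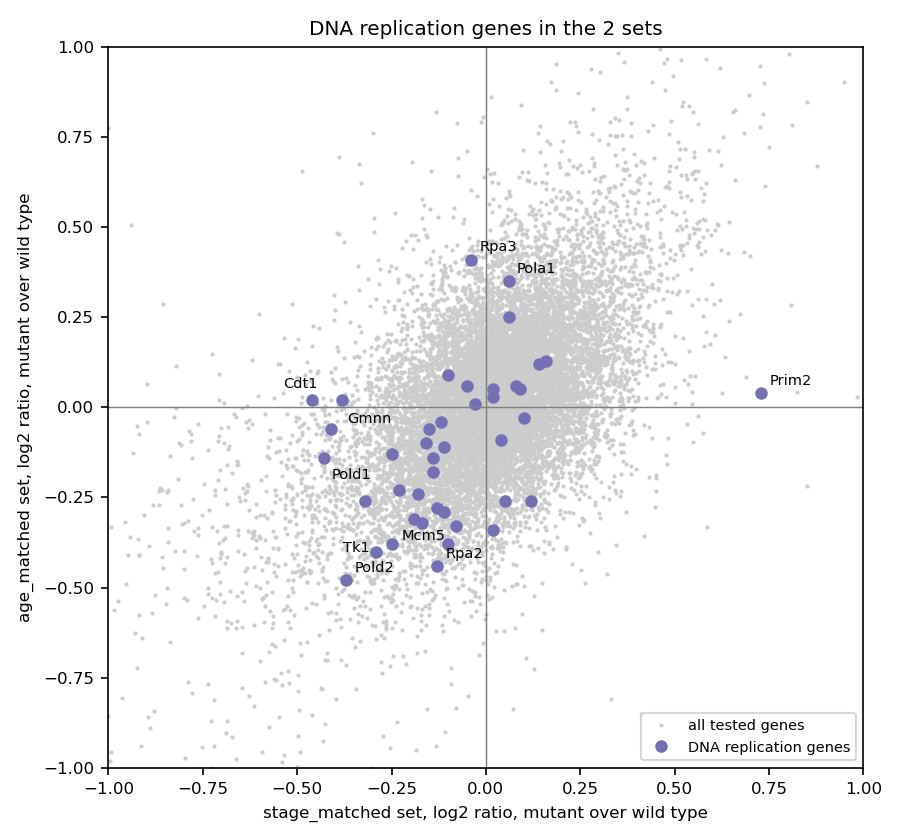
The horizontal axis is the log2 ratio of mutant over wild type in the stage_matched set and the vertical axis that in the age_matched set; purple points are the 42 replication genes and grey points all tested genes, of which 134 lie beyond the axes. Purple points are densest in the lower left, where both sets are negative for 22 of 42 genes, and Prim2 stands apart at the right with 0.73 against 0.04.

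The single-strand binding protein RPA, a trimer, gave readings of both signs. Rpa2 read -0.27, 0.01, -0.12 and -0.77, lowest on a single age_matched array. Its mean was -0.29 ± 0.22 (SD, n = 2; limma adjusted p = 0.161), and a second probe read -0.07. Rpa1, the large subunit, had a mean of 0.04 ± 0.09 and Rpa3, the smallest, of 0.19 ± 0.32 (SD, n = 2). Rpa3 was near zero in the stage_matched set (-0.04) and higher in the age_matched set (0.41).

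Neither of the enzymes that finish the lagging strand passed the threshold. Lig1, DNA ligase I, read -0.18, -0.11, -0.25 and -0.10, all 4 below zero, with a mean of -0.16 ± 0.02 (SD, n = 2; limma adjusted p = 0.344). Fen1, the flap nuclease, read -0.04 and 0.09 with stage_matched pools and -0.35 and -0.33 with age_matched pools, so that its mean of -0.16 ± 0.25 (SD, n = 2) came from the second set. Fen1 and Pola2 lie on chromosome 19, the chromosome of Btaf1, at 26.8 Mb and 31.1 Mb from the Btaf1 probe.

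Nucleotide supply had the lowest median of the roles with 3 or more genes, -0.22 over 4 genes, and 0 passed the threshold. Tk1, the thymidine kinase of dividing cells (probe on chromosome 11, 117677105 to 117677164, mm9, minus strand), read -0.22 and -0.36 with stage_matched pools and -0.35 and -0.44 with age_matched pools. The 4 arrays lay close together and below zero. It averaged -0.34 ± 0.08 (SD, n = 2), 1.27-fold lower, with limma adjusted p = 0.0781. Ribonucleotide reductase, the enzyme that makes deoxyribonucleotides, was below zero at both subunits on every array. Rrm1 read -0.39, -0.07, -0.11 and -0.35, with a mean of -0.23 (limma adjusted p = 0.184). Rrm2 read -0.19, -0.17, -0.37 and -0.11, with a mean of -0.21 (limma adjusted p = 0.221). Tyms, thymidylate synthase, was the exception, with 0.03, 0.29, -0.03 and 0.28 and a mean of 0.14 ± 0.03 (SD, n = 2; limma adjusted p = 0.392). Its 3 probes did not share a sign, with means from -0.05 to 0.14.

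The genes of S phase entry gave mixed readings, and 0 of 3 passed the threshold. E2f1, a transcription factor that drives many of the genes above, read 0.11, -0.32, 0.11 and -0.69. At this probe it was high with the mutant in Cy5 and low with it in Cy3, with a mean of -0.20 ± 0.13 (SD, n = 2; limma adjusted p = 0.271). Its other probe read -0.31, -0.11, -0.41 and -0.26, below zero in both dye orientations, with a mean of -0.27. Ccne2, a cyclin E that activates CDK2, had a mean of -0.20 ± 0.17 and a second probe at -0.19, whereas Ccne1, the other cyclin E, had a mean of 0.03 ± 0.02 (SD, n = 2) and a second probe at -0.10.

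Behind the fork, Chaf1a, the large subunit of the histone chaperone CAF-1, read 0.04, -0.25, -0.48 and -0.29, below zero on 3 arrays. Its mean was -0.24 ± 0.20 (SD, n = 2; limma adjusted p = 0.213). Chaf1b, the next subunit of CAF-1, read -0.47, 0.23, -0.47 and 0.39. It followed the dye on all 4 arrays, and it averaged -0.08. Uhrf1, which guides maintenance DNA methylation, had a mean of -0.01, and Slbp, the histone mRNA binding protein, of 0.07.

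Several probes were tested for 11 of the 42 genes, and in 8 of these all probes had one sign. The exceptions were Ccne1, Gins1 and Tyms. The SD between the sets ran up to 0.49, at Prim2, and its median was 0.09. Apart from Prim2, 5 genes, Cdt1, Gmnn, Gins4, Rpa3 and Fen1, had an unadjusted p under 0.05 for the difference between the sets without passing after adjustment. With Prim2 these were 14.3% of the 42 genes, near the 11.1% of all tested genes.

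A wider list of 97 other genes of replication and S phase control, none of them among the 42, had a median of -0.0472, and 57 were negative (58.8%). Past the threshold 4 were lower (4.12%) and 1 was higher (1.03%), beside the 2.72% and 2.03% of all genes. Cdkn1a, which encodes p21, an inhibitor of cyclin-dependent kinases, read 1.34 and 1.18 with stage_matched pools and 1.54 and 0.74 with age_matched pools. It was high on all 4 and rose by 1.20 ± 0.09 (SD, n = 2; 2.29-fold; limma adjusted p = 0.00210). Cdkn1c, which encodes p57, another inhibitor of that family, read -0.59, -0.70, -0.61 and -0.47. It was low on all 4 and fell by 0.59 ± 0.07 (SD, n = 2; limma adjusted p = 0.0213).

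Ccnd2, cyclin D2, read -0.45 and -0.55 with stage_matched pools and -1.33 and -1.23 with age_matched pools. It fell by 0.89 ± 0.55 (SD, n = 2; limma adjusted p = 0.0302), and its other probes read -1.38 and -0.84, both past the threshold. Top2a, the topoisomerase that untangles copied DNA, was low on all 4 arrays and fell by 0.45 ± 0.04 (SD, n = 2; limma adjusted p = 0.0374). A second Top2a probe read -0.52 (limma adjusted p = 0.137). Tfdp2, a partner of E2F factors, was lower by 0.75 ± 0.49 at its brightest probe (SD, n = 2; limma adjusted p = 0.0387), but its other probes read 0.14 and 0.01. The highest genes that did not pass were Rbl1 (p107, a pocket protein, 0.42; limma adjusted p = 0.0544), Asf1a (a histone chaperone, 0.31) and Dtymk (thymidylate kinase, 0.31). Asf1a and Dtymk had second probes at 0.02 and 0.08.

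The embryos also differed in tissue genes. The medians of yolk sac, heart, primitive blood and presomitic mesoderm genes lay further from zero than that of the replication genes. In bulk RNA, fewer cells of a type and less RNA per cell cannot be told apart. Of 10 yolk sac endoderm genes 10 fell, with a median of -1.06 and values from -1.64 to -0.45. Of 10 heart muscle genes 10 fell, with a median of -1.37, or -0.841 by the stage_matched pools alone and -1.86 by the age_matched pools alone. The median of primitive blood genes was -0.694, all 6 tested were negative and 2 past the threshold. For presomitic mesoderm it was 0.406; 6 of 7 were positive and 3 past the threshold. For neural genes it was -0.157, with 1 of 6 lower past the threshold. Trophoblast and decidua genes had medians of -0.13 over 3 genes and -0.20 over 5 genes with 0 past the threshold. All 16 p53 targets were positive, with a median of 0.565. Past the threshold were 8 of them, Cdkn1a included. The part of these shifts in the replication genes' ratios was not tested. Mitosis genes, set beside them as another group tied to dividing cells, had a median at -0.0879. Of these, 20 of 29 were negative (69.0%), near the 71.4% of the replication genes and above the 45.7% of all tested genes. On all 4 arrays 27.6% were negative, against 21.4% of the replication genes and 13.7% of all tested genes. Past the threshold were 2, both lower (6.9%, against 2.72% of all tested genes).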

How the data were processed

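RNA of pooled mouse embryos was labelled (300 ng per dye, per the labels) and hybridised to 4 two-colour Agilent whole-genome arrays. Spot and background intensity in each dye came from the scanner's mean and median columns, per the file headers, with no normalization. Per the file headers, the scanning software subtracted background and normalized the dyes to give the processed intensity. The log10 values deposited by the authors are log10 of the processed ratio, turned so that the mutant is the numerator, with at most 5e-06 between them and the scanner files. The submitters' processing notes give Feature Extraction as version 9.5.3 and the file headers as 10.5.1.1.

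From the intensities, limma 3.58.1 in R 4.3.3 was used for normexp background correction (offset 50) and loess within each array, with marked spots left out and control spots at weight 0. Replicate spots were averaged. The filter kept 21975 of 41174 probes, those well above background on every array for mutant RNA or on every array for wild-type RNA, and 21939 of these had a value on every array and were tested. A gene was read from its brightest tested probe. The 2 arrays of a set were averaged, and limma was fitted to the 2 set means (1 residual and 6.9 prior degrees of freedom). Its two-sided p-values were adjusted by Benjamini-Hochberg over every tested probe, with a threshold of 0.05. The difference between the sets came from a fit of all 4 arrays by set and dye orientation (542 prior degrees of freedom), so that its error is technical and nearly alike for every gene. The fits were tested on simulated data. Shares of all genes are over the 13611 tested genes.

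The genes, the lists set beside them and the motifs were chosen with earlier results of these data known. Named genes are all those of the list, by role, and in the wider list those past the threshold with the 4 highest and the 4 lowest. Gins3, Cdc45, Pold3, Pold4 and Orc1 were added to these after their values were seen. Alternatives were no background correction, processed signals, the authors' deposited table, median centring, other filters on dim or marked spots, the mean over probes, 4 arrays taken as replicates, each array left out, and a shorter promoter window. Positions of probes follow the files (mm9). Exons and untranslated regions were not used here. Promoters are RefSeq windows of GRCm38.p6.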

Additional observations from a re-analysis of the deposited data

Results flagged for a closer look

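A test of the difference between the sets singled out 1 of the replication genes, 2 of the wider list and the 4 sex chromosome genes named beside Pola1. Prim2 read 0.73 with stage_matched and 0.04 with age_matched pools, a difference of -0.69 (limma on the 4 arrays, adjusted p = 0.00833). Ccnd2 read -0.50 and -1.28, a difference of -0.78 (limma adjusted p = 0.00142). Tfdp2 read -1.10 and -0.40 at its brightest probe, a difference of 0.70 (limma adjusted p = 0.00760), and 1 of its age_matched arrays read -0.80 while the other read 0.00. For Xist the age_matched minus the stage_matched ratio was 1.78 (limma adjusted p = 3.08e-18), for Ddx3y -1.26 (limma adjusted p = 3.2e-09), for Eif2s3y -1.14 (limma adjusted p = 1.91e-07) and for Kdm5d -0.80 (limma adjusted p = 0.00088). Each set is 1 pair of pools, so these differences hold for the pools hybridised and carry no variation between embryos.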

How the results depend on the processing

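No paired analysis was possible because the replicate numbers name dye orientations of the same pools. The count of replication genes past the threshold, 1, was 0 without background correction, with processed signals and with dim probes kept; it was 3 (Mcm5, Pold2 and Tk1) with 4 arrays as replicates. It ranged from 0 to 1 when single arrays were left out, with 1 only without stage_matched replicate 2. The count for the difference between the sets, 1, was 0 without background correction, with processed signals and with median centring. The median of the replication genes, -0.136, was -0.131 without background correction, -0.116 with processed signals or the authors' deposited table, -0.192 with median centring and -0.11 with the Orc genes added, and it ranged from -0.178 to -0.0489 when single arrays were left out, the latter without age_matched replicate 1. Median centring moved the median of all genes to -0.0552, that of the wider list from -0.0472 to -0.124, and the share of called genes that were higher from 42.7% to 18.2%; with processed signals that share was 51.3%. The number of replication genes with a negative mean ranged from 23 to 32 over all settings. TATAAA was in 0 member windows from 100 bases before the start onward.

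Of the 42 genes, 27 kept their sign under every setting run and 15 did not, 5 of them under settings other than a left-out array. Mcm6 (-0.0034) became 0.0031 without background correction and 0.012 with processed signals or the authors' deposited table. Gins1 (0.0021) became -0.0069 with the latter pair, -0.061 with median centring and -0.027 as the mean over probes. Rpa1 became -0.011 with median centring, Ccne1 -0.032 as the mean over probes, and Uhrf1 0.014 with processed signals or the authors' deposited table.

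When 1 array is left out, dye bias no longer averages out within its set. The ratios then ranged from -0.51 to 0.077 for Cdt1, -0.34 to 0.33 for Mcm6, -0.37 to 0.081 for Mcm10, -0.056 to 0.06 for Gins1, -0.24 to 0.096 for Gins4, -0.26 to 0.046 for Rfc1, -0.29 to 0.24 for Rfc2, -0.039 to 0.18 for Rfc4, -0.3 to 0.088 for Pola2 and -0.012 to 0.083 for Rpa1. They ranged from -0.031 to 0.1 for Ccne1, -0.4 to 0.00038 for E2f1, -0.29 to 0.13 for Chaf1b, -0.057 to 0.038 for Uhrf1 and -0.016 to 0.16 for Slbp. The cause of the other changes was not tested. With n = 2 sets and an SE of 0.0906 or more per gene, a difference as small as the median of these genes was not detectable for a single gene.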
